A study of Mus musculus with 2 samples.

Results

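Tumour necrosis factor (Tnf), its receptors Tnfrsf1a and Tnfrsf1b, the receptor adaptor Traf1, the decoy receptor Tnfrsf23 and the related ligands Tnfsf10 and Tnfsf13b were followed in myeloid cells of inflamed mouse gingiva. These 7 genes were chosen with earlier results of these data known. They were taken by name from the 32285 genes of both count matrices, and all 7 were found. Each was read in cells with at least 500 unique molecular identifiers (UMIs, the barcodes that mark single captured RNA molecules), at least 250 detected genes and at most 10% mitochondrial UMIs. That left 9596 cells from mice given 10% Tet2-/- bone marrow and 11672 cells from mice given 10% Tet2+/+ bone marrow. The product of Tet2 oxidises 5-methylcytosine, and loss of the gene in blood stem cells is a common lesion of clonal haematopoiesis. In both groups recipient mice (BMT, bone marrow transplantation) were studied 12 weeks after transplantation, with periodontitis induced by a ligature for 5 days before gingival cells were collected. CD11b+ cells were sorted and sequenced from the 3′ end of transcripts, as 1 library per group. The Tet2-/- and Tet2+/+ libraries are named here after the transplanted marrow. The labels do not say which cells descend from the 10% graft, how many mice were pooled, or which Tet2 exons are deleted. By the protocol the sort gate also differed, CD45.2+CD11b+ for the Tet2-/- library and CD45+CD11b+ for the Tet2+/+ library, while the title of the latter gives CD45.2+CD11b+. Genotype, sort gate and library therefore cannot be told apart, and no test between the groups was possible. Every interval given is a 95% interval for counting error only and covers no difference between mice.

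TNF is made as a membrane-bound trimer that is cut from the cell surface, and in inflamed gingiva it promotes leukocyte recruitment and osteoclast formation. TNFR1, the product of Tnfrsf1a, carries a death domain and signals either to NF-kB and survival or to caspase-driven death. TNFR2, the product of Tnfrsf1b, lacks that domain, binds membrane TNF best and recruits TRAF adaptors, among them TRAF1, which is itself an NF-kB target. Tnfrsf23 encodes a mouse decoy receptor for the TNF relative TRAIL that lacks a death domain. TRAIL is the product of Tnfsf10 and triggers apoptosis, and Tnfsf13b encodes BAFF, a survival factor for B cells.

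All 7 genes were located in the GENCODE M21 annotation of mm10. Tnf lies on the minus strand of chromosome 17, from 35199381 to 35202007, and overlaps no other gene. Tnfrsf1a is at chromosome 6, 125349362 to 125362484, Tnfrsf1b at chromosome 4, 145213463 to 145246870, and Traf1 at chromosome 2, 34941750 to 34961772. Tnfrsf23 is at chromosome 7, 143665809 to 143685872, and overlaps E230032D23Rik on the other strand. Tnfsf10 is at chromosome 3, 27317028 to 27342427, and Tnfsf13b at chromosome 8, 10006467 to 10039072, the latter overlapping Gm44789 on the other strand.

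Sequence elements set Tnf apart within the group of 7. Its annotated 3′ untranslated region of 764 bases held 8 copies of ATTTA and 5 of TTATTTATT, the AU-rich nonamer that tristetraprolin-family proteins bind to speed the decay of a transcript. Among the other 6 genes the nonamer was found once, in the 3631 bases of Tnfsf13b, and ATTTA stood at 0 to 2 per kilobase against 10.5 per kilobase in Tnf. The densest stretch, bases 435 to 464 of the untranslated region in the Tnf-201 transcript, is shown because it holds 4 overlapping copies of the nonamer, marked in capitals.
Tnf AU-rich element: ttaTTATTTATTATTTATTTATTATTTATT

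Promoters are shown for Tnf, Traf1 and Tnfrsf23, the 3 genes that passed the size rule given further on, of 1.5-fold after adding 10 CPM, in neutrophil-like cells. Their RefSeq promoters (GRCm38.p6) are shown as the 250 bases before each annotated start, 5′ to 3′ on the strand of the gene, with TATAAA matches on either strand in capitals. They span chr17:35202008-35202257 for Tnf, chr2:34961773-34962022 for Traf1 and chr7:143685876-143686125 for Tnfrsf23, each on the minus strand.
Tnf promoter: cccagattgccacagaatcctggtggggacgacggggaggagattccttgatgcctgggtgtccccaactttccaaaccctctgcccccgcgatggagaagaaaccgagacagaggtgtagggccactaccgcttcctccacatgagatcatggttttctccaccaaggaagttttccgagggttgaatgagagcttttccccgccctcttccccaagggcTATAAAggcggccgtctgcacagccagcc
Traf1 promoter: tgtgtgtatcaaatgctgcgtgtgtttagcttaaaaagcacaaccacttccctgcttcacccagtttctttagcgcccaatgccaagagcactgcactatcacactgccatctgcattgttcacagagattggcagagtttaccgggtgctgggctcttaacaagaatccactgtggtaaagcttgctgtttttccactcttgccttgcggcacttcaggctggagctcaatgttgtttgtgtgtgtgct
Tnfrsf23 promoter: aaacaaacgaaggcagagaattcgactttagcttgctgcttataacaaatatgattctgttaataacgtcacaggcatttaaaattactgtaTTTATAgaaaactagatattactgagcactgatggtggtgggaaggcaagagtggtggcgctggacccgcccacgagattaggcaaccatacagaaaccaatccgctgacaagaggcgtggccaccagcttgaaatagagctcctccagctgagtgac
TATAAA began 29 bases before the Tnf start, and 12.4% of all 32851 promoter windows of this length held it on either strand. Tnfrsf23 held it only on the opposite strand, 158 bases before its start. No window of the 7 genes held GGGA, any 4 bases and CC, a pattern of NF-kB sites that 17.6% of all windows hold. Nor did the Tnf, Traf1 and Tnfrsf23 windows hold AANNGAAA (IRF, 21.3% of all windows) or TGANTCA (AP-1, 6.75%). The IRF letters occurred in Tnfsf10, 53 and 30 bases before the start, in Tnfrsf1b, 10 bases before it, and in the second annotated start of Tnfsf13b, 160, 20 and 14 bases before it. These are matches of letters in a short window, on both strands, and say nothing of binding.

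The libraries held 93919724 UMIs (Tet2-/-) and 100782700 UMIs (Tet2+/+), and median depth of kept cells was 5920 and 5009 UMIs. Cells were clustered without the 7 genes and 88 pathway genes and classes were named from fixed markers. Neutrophil-like cells were 49.8% of the Tet2-/- library and 56.9% of the Tet2+/+ library. A UMI of Itgam, the gene of CD11b, was seen in 76.1% and 72.7% of kept cells, and B cell-like and T cell-like cells were present despite the CD11b sort. Tet2 itself stood at 97.8 CPM (UMIs of a gene per 1000000 UMIs of the pooled cells) in the Tet2-/- library and 81.7 CPM in the other. Its 3′ counts need not lie in the deleted part and so check nothing about the label. Xist was carried, without Y-linked transcripts, by 1280 neutrophil-like cells of the Tet2-/- library and 2 of the Tet2+/+ library, and Y-linked transcripts alone by 209 and 3642. Sex of the cells thus also differed between the libraries. The libraries shared 31 barcodes of kept cells, 0.323% and 0.266% of each.

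Tnf was highest in neutrophil-like and macrophage-like cells. Neutrophil-like cells, the most abundant class, held 161 CPM of Tnf in the Tet2-/- library (156 to 166) and 99.2 CPM in the Tet2+/+ library (95.8 to 103). Macrophage-like cells held 106 CPM (98.9 to 113) and 119 CPM (111 to 127). The order of these classes therefore differed between the libraries, with neutrophil-like cells first in the Tet2-/- library and macrophage-like cells first in the other. Dendritic-like cells followed at 71.9 and 65.9 CPM, then T cell-like cells at 59.3 and 57.8 CPM. Among the 8 classes with at least 50 cells in each library, both lay below macrophage-like cells and above the rest, counting error aside. Mast cell or basophil-like cells, only 10 and 37 in number and outside this ranking, held 85.1 and 97.4 CPM. Immature neutrophil-like cells, which express granule genes such as Ltf and Elane, held 55.2 and 36 CPM of Tnf. B cell-like cells held 46 and 32.6 CPM, monocyte-like cells 42.1 and 30.7 CPM, and NK cell or ILC-like cells 33.8 and 16.9 CPM. Among these last 4 classes neighbouring levels overlapped over the range of both libraries. Here and below, overlap of classes refers to the range between the values of both libraries and leaves out counting error. Neutrophil-like cells held 42.6% of all Tnf UMIs in the Tet2-/- library and 51.9% in the Tet2+/+ library, against 27.4% and 37.2% of all UMIs. Expression was uneven between cells, as the 10% of Tnf-positive cells with the most Tnf UMIs carried 42.7% and 41.4% of them.

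**Figure D1:**
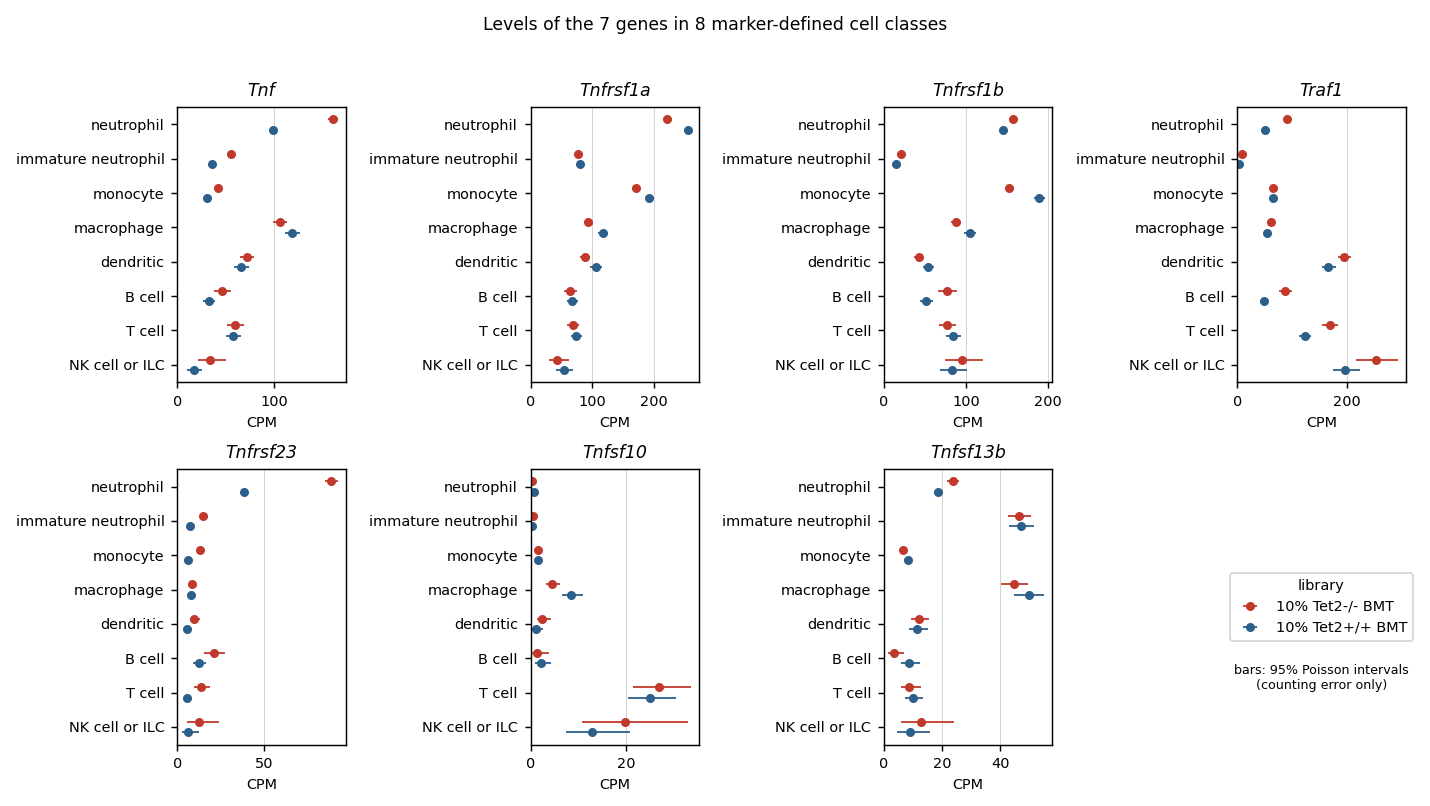
Levels (CPM, horizontal axes, each panel on its own scale from 0) of the 7 genes in 8 marker-defined classes, with 1 point per library (red, Tet2-/-; blue, Tet2+/+) and 95% Poisson intervals as bars. Tnf, Tnfrsf1a and Tnfrsf23 are high in neutrophil-like cells, Traf1 in NK cell or ILC-like, dendritic-like and T cell-like cells, Tnfsf10 in T cell-like and NK cell or ILC-like cells and Tnfsf13b in macrophage-like and immature neutrophil-like cells.

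Between the libraries, Tnf in neutrophil-like cells stood at a ratio of 1.62 (1.55 to 1.7), Tet2-/- over Tet2+/+, the direction of all ratios given here. Immature neutrophil-like cells had a ratio of 1.53 (1.35 to 1.75), which ran from 1.24 to 3.22 over the alternatives, the highest after free RNA was subtracted. Ratios of 2 (1.06 to 3.77) in NK cell or ILC-like cells and 2.1 (1.09 to 4.29) in osteoclast-like cells rested on 24 and 21 UMIs and on 38 and 13 UMIs. Monocyte-like cells had a ratio of 1.37 (1.23 to 1.53) at low levels, and macrophage-like cells 0.892 (0.81 to 0.981). Neither was stable: the monocyte ratio was 0.988 with the libraries clustered alone and 4.12 after free RNA was subtracted (1.42 with free RNA scaled by the cleaner B cell cluster), and the macrophage ratio 1.09 in thinned cells. The neutrophil value moved with the clusters included. The cluster led by Ccl3, a chemokine gene, made up 12.7% of neutrophil-like cells in the Tet2-/- library and 3.33% in the other. Without that cluster the ratio was 1.11. With the Tet2+/+ mix of clusters it was 1.38, and the change of mix alone, at Tet2+/+ levels, gave 1.1. Taking only Xist-carrying cells from the Tet2-/- library and only Y-carrying cells from the Tet2+/+ library gave 1.43, and Y-carrying cells of both gave 2.32. Without the Siglecf-led cluster, whose share was 8.35% and 21%, it was 2.21. Neutrophil markers summed to 267378 and 241196 CPM in this class with 10 of 12 higher in the Tet2-/- library, and the 6 erythroid markers to 959 and 597 CPM with all 6 higher. Macrophage markers summed to 737 and 913 CPM with 1 of 11 higher, and monocyte markers to 631 and 661 CPM with 3 of 9 higher, none of them at 0. In macrophage-like cells, monocyte markers summed to 1486 and 2952 CPM with 0 of 9 higher. Macrophage markers there summed to 50524 and 42481 CPM with 10 of 11 higher. Erythroid markers there summed to 1180 and 21.7 CPM with 5 of 6 higher and 1 at 0 in both. The part of these lists, of sex and of the sort gate in the Tnf ratios was not tested.

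**Figure D2:**
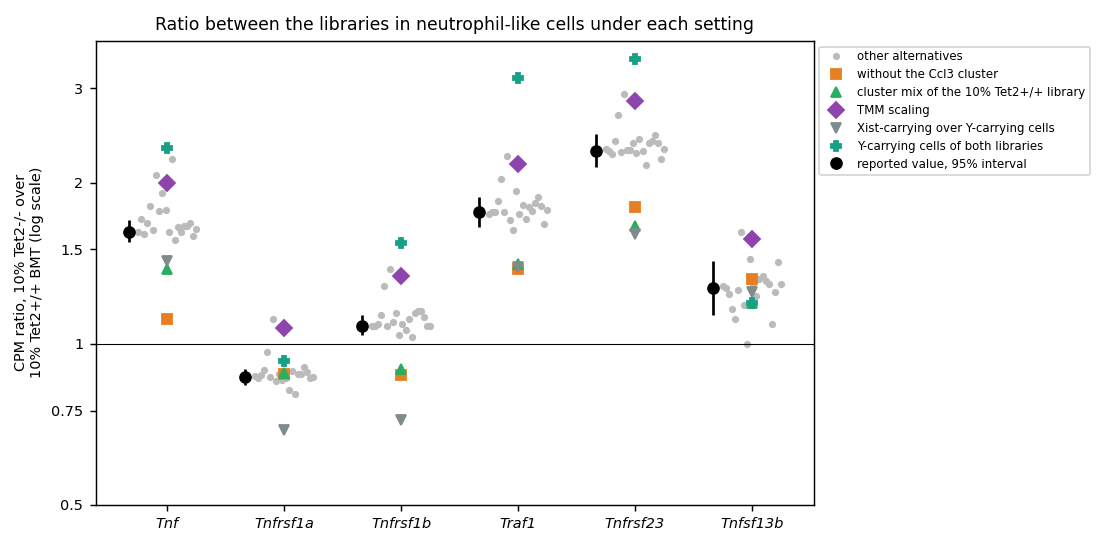
Ratio of CPM, Tet2-/- over Tet2+/+ library (log axis), of 6 of the genes in neutrophil-like cells, with the reported value and its 95% interval in black and every alternative as another symbol. Tnf runs from 1.11 without the Ccl3-led cluster to 2.32 in Y-carrying cells, Tnfrsf23 stays between 1.6 and 3.4, and Tnfrsf1a lies on both sides of 1.

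The 8 neutrophil clusters differed far more in Tnf than the libraries did. In the Ccl3-led cluster Tnf reached 675 CPM (643 to 707) in the Tet2-/- library and 497 CPM (452 to 546) in the other. The Siglecf-led cluster was named neutrophil-like on 5 markers, although Siglecf is also an eosinophil gene. Its neutrophil list as a whole was not raised, with a mean log2 excess of -0.04 over all other cells. It came second for Tnf at 261 and 205 CPM. Both clusters stood clear of the other 6 in each library. The interferon-response cluster led by Ifit1 held 98.7 and 125 CPM, and it alone among the 8 was lower in the Tet2-/- library, with a ratio of 0.788 whose interval, 0.604 to 1.01, includes 1. The Acod1-led cluster held 119 and 64.7 CPM (ratio 1.84, 1.55 to 2.2), and the Csf3r-led cluster 88.1 and 66.1 CPM (1.33, 1.09 to 1.63). In the Jaml-led cluster levels were 75.8 and 42 CPM, a ratio of 1.8 (1.48 to 2.19). The lowest levels were in the Retnlg-led cluster, 63.1 and 31.3 CPM, and the Mmp8-led cluster, 64.1 and 29.6 CPM. In those 2 clusters the ratios were highest, 2.02 (1.65 to 2.48) and 2.16 (1.78 to 2.64). The Tnf ratio was thus above 1 in 7 of 8 clusters, and largest where Tnf was low. In barcodes with 1 to 50 UMIs, which hold free RNA, Tnf stood at 93.7 and 93.8 CPM. Across the 8 clusters the order of Tnf levels correlated between the libraries with a Spearman rho of 0.90, a description over clusters that share libraries.

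**Figure D3:**
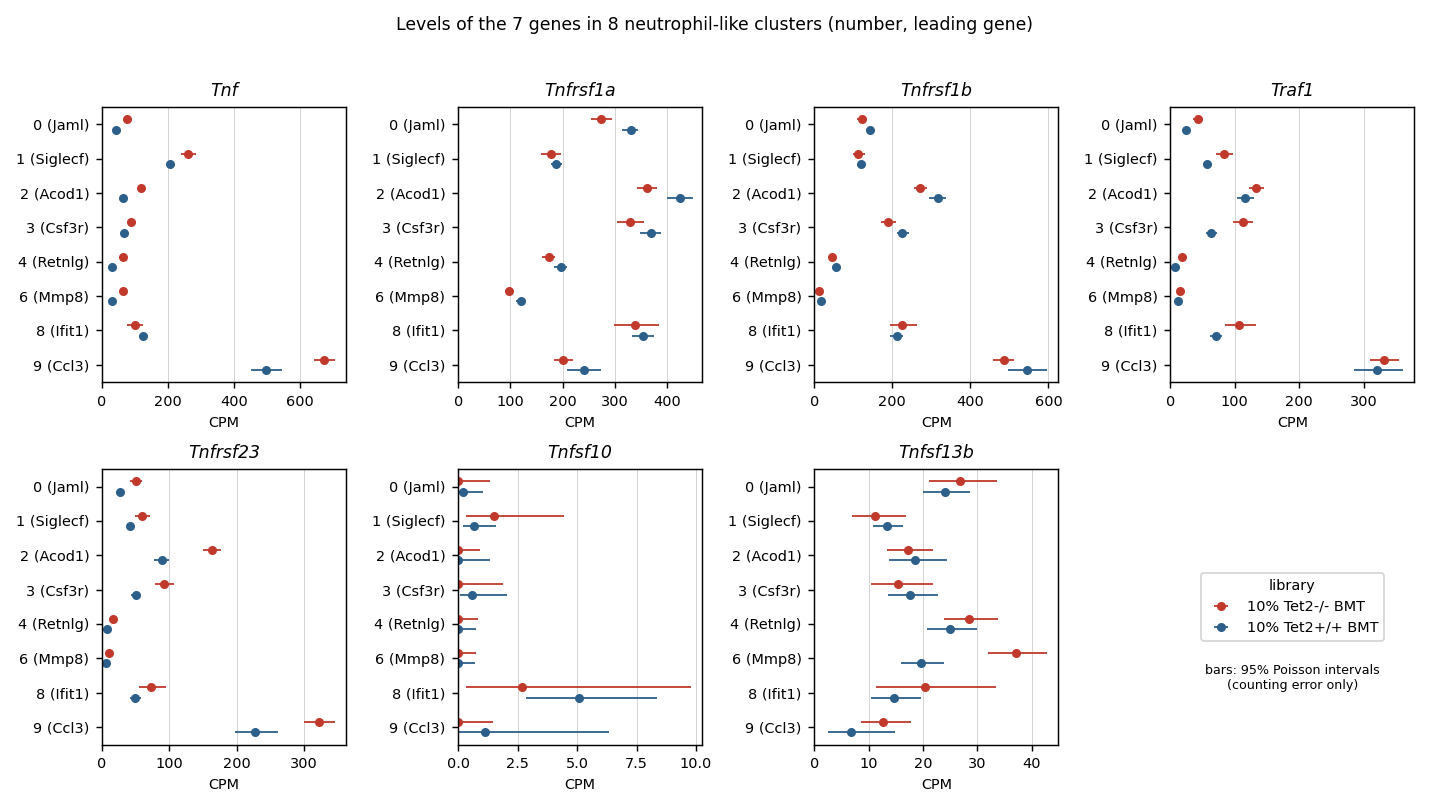
Levels (CPM, each panel on its own scale from 0) of the 7 genes in the 8 neutrophil-like clusters, named by number and leading gene, with 1 point per library and 95% Poisson intervals. The Ccl3-led cluster holds the highest levels of Tnf, Tnfrsf1b, Traf1 and Tnfrsf23 in both libraries, Tnfrsf1a is highest in the Acod1-led cluster, and Tnfsf13b is highest in the Mmp8-led cluster of the Tet2-/- library.

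Outside the neutrophil-like class, the Arg1-led, Ace-led and C1qa-led clusters were among those past 100 CPM of Tnf in the Tet2-/- library. The Ebf1-led B cell cluster, at 103 CPM, passed too. So did the unnamed Obp1a-led (133 CPM), Ccl8-led (128 CPM) and Ltf-led (127 CPM) clusters, whose best-scoring list was that of neutrophils. An unnamed cluster led by Arg1, Spp1 and Ccl22, with 308 cells in the Tet2-/- library and 79 in the other, held 380 and 185 CPM of Tnf, a ratio of 2.06 (1.76 to 2.42). It stayed unnamed because its best-scoring list, of erythroid genes, went against its leading genes, and the 6 unnamed clusters together held 22.3% and 8.56% of all Tnf UMIs. Within monocyte-like cells Tnf was highest in the Ace-led cluster, whose genes mark patrolling monocytes, at 113 CPM (101 to 125) and 48.7 CPM (42.3 to 55.7), a ratio of 2.31. The Fn1-led cluster of monocyte-like cells held 28.5 and 26.1 CPM, a ratio of 1.09 (0.912 to 1.31). In the C1qa-led macrophage-like cluster Tnf stood at 109 and 124 CPM. Dendritic-like cells split into a Cd209a-led cluster, at 82.5 and 66.2 CPM, and an Xcr1-led cluster of 43 and 25 cells, at 27 and 64 CPM. The higher Tnf of the Tet2-/- library was therefore not shared by every myeloid cluster.

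Tnfrsf1a, the receptor with the death domain, was detected in every class and was highest in neutrophil-like cells, at 222 CPM (216 to 228) in the Tet2-/- library and 256 CPM (251 to 262) in the other. Monocyte-like cells followed at 171 and 193 CPM, and these classes did not overlap. Macrophage-like cells held 93.6 and 117 CPM and dendritic-like cells 88.5 and 106 CPM, whose ranges overlapped. Levels then fell through immature neutrophil-like (76.7 and 80.1), T cell-like (68.4 and 74.4) and B cell-like cells (64 and 67.5) to NK cell or ILC-like cells (43.6 and 54). Ratios in these 8 classes were below 1, from 0.797 (0.722 to 0.88) in macrophage-like cells to 0.957 (0.869 to 1.05) in immature neutrophil-like cells. Intervals included 1 in immature neutrophil-like, T cell-like, B cell-like and NK cell or ILC-like cells. Among the smaller classes, the ratio was 1.1 (0.78 to 1.55) in osteoclast-like and 1.05 (0.696 to 1.57) in epithelial-like cells. In mast cell or basophil-like cells it was 0.593 (0.114 to 1.96). In neutrophil-like cells the ratio was 0.868 (0.838 to 0.898). It was below 1 in each of the 8 clusters, from 0.809 (0.717 to 0.912, Mmp8-led) to 0.961 (0.834 to 1.1, Ifit1-led). That direction depended on scaling, since with TMM and median-of-ratios factors for the whole class the ratio was 1.07 and 1.11. These factors moved every neutrophil ratio by 0.31 and 0.35 on the log2 scale, while the median of all genes in the class stood at -0.10. Tnfrsf1a reached 361 and 424 CPM in the Acod1-led cluster and only 201 and 240 CPM in the Ccl3-led cluster where Tnf was highest.

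Tnfrsf1b, the receptor without a death domain, had its highest class levels in monocyte-like cells, 152 and 189 CPM, and neutrophil-like cells, 157 and 145 CPM, which overlapped. Macrophage-like cells held 87.6 and 105 CPM and overlapped with NK cell or ILC-like cells, at 95.7 and 83 CPM, which overlapped with T cell-like cells at 76.9 and 84.7 CPM. B cell-like cells held 76.5 and 51.6 CPM and dendritic-like cells 42.2 and 54 CPM. Immature neutrophil-like cells were lowest at 20.3 and 15.2 CPM. Within neutrophils the gene spanned a wide range, from 13.3 and 17 CPM in the Mmp8-led cluster to 485 and 545 CPM in the Ccl3-led cluster. The class ratio of 1.08 (1.04 to 1.13) hid ratios below 1 in 7 of 8 clusters, and it was 0.896 with the Tet2+/+ mix of clusters, 0.873 without the Ccl3-led cluster and 1.34 with TMM scaling. No direction for Tnfrsf1b in the class was therefore kept across settings. Ace-led monocyte-like cells held 304 and 326 CPM of Tnfrsf1b and Fn1-led cells 174 and 179 CPM. In the Arg1-led cluster it stood at 383 and 292 CPM, a ratio of 1.31 (1.15 to 1.49).

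Traf1, the adaptor that TNFR2 recruits, was highest outside the granulocytes. NK cell or ILC-like cells held 252 CPM (216 to 292) and 197 CPM (174 to 224), dendritic-like cells 195 and 166 CPM, and T cell-like cells 168 and 123 CPM. Osteoclast-like cells, only 38 and 26 in number, held 140 and 118 CPM. In neutrophil-like cells Traf1 stood at 89.9 CPM (86 to 93.8) in the Tet2-/- library and 51.1 CPM (48.7 to 53.6) in the other, a ratio of 1.76 (1.65 to 1.88). Neutrophil-like, B cell-like (86.8 and 48 CPM) and monocyte-like cells (65.2 and 64.3 CPM) overlapped in this order, and immature neutrophil-like cells were lowest at 8.83 and 3.83 CPM. As with Tnf, the Ccl3-led cluster held the most Traf1 among neutrophils, 332 and 321 CPM, and there the libraries did not differ beyond counting error, with a ratio of 1.03 (0.902 to 1.19). The class ratio was 1.38 without that cluster and 1.41 at the Tet2+/+ mix. Ratios in the other clusters ran from 1.14 (0.993 to 1.32) in the Acod1-led to 2.41 (1.61 to 3.67) in the Retnlg-led cluster, where Traf1 was only 18.1 and 7.5 CPM. The Arg1-led unnamed cluster held the highest level of any cluster described here, 498 and 509 CPM. In Ace-led monocyte-like cells Traf1 stood at 205 and 138 CPM, a ratio of 1.48 (1.33 to 1.66), against 48.9 and 44.7 CPM in Fn1-led cells. The class value of monocyte-like cells had a ratio of 1.01 (0.933 to 1.1), and of 1.31 at the Tet2+/+ mix of clusters.

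Tnfrsf23 was the gene most nearly restricted to neutrophils. It stood at 88.7 CPM (85 to 92.6) in neutrophil-like cells of the Tet2-/- library and at 38.7 CPM (36.6 to 40.9) in those of the other, a ratio of 2.29 (2.14 to 2.46). No other of the 8 classes passed 21.1 CPM, and those 7 classes overlapped from one to the next. Neutrophil-like cells held 65.7% and 70.7% of all its UMIs. The gene was at its peak in the Ccl3-led cluster, 322 CPM (300 to 345) and 227 CPM (197 to 261), then in the Acod1-led cluster at 163 and 88.3 CPM, and lowest in the Mmp8-led cluster at 10.1 and 6.61 CPM. It was higher in the Tet2-/- library in all 8 clusters, with ratios from 1.42 in the Ccl3-led to 2.54 in the Retnlg-led cluster. The class ratio was 1.66 at the Tet2+/+ mix of clusters and 1.8 without the Ccl3-led cluster, and it ran from 1.6 to 3.4 over all alternatives. Its reads could be confused with those of Tnfrsf22, a closely related decoy receptor gene. Of the 31-base words in the Tnfrsf23 transcript, 38.7% also occur in Tnfrsf22, and 70.4% of those in its last 500 bases, where this assay reads. Tnfrsf22 was listed at 1.37 and 1.71 CPM in neutrophil-like cells. How the counting divided reads shared by both genes is not stated in the labels or headers, so the Tnfrsf23 level is uncertain.

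The remaining ligands were scarce in neutrophils. Tnfsf10, which encodes TRAIL, was highest in T cell-like cells, 27 CPM (21.4 to 33.6) and 25.1 CPM (20.5 to 30.5), and next in NK cell or ILC-like cells, 19.7 and 12.9 CPM. Macrophage-like cells held 4.51 and 8.57 CPM, a ratio of 0.527 (0.341 to 0.804) from 37 and 62 UMIs. In neutrophil-like cells only 5 and 24 UMIs were counted, 0.214 and 0.733 CPM, a ratio of 0.292 (0.0871 to 0.782) at a level too low for the size rule. Of those 24 UMIs in the Tet2+/+ library, 15 lay in the Ifit1-led interferon-response cluster, at 5.08 CPM, and 3 clusters held none in either library. T cell-like cells held 40.2% and 40.6% of all Tnfsf10 UMIs. Tnfsf13b, which encodes BAFF, had its highest levels in macrophage-like cells, 44.9 and 49.8 CPM, and immature neutrophil-like cells, 46.4 and 47.1 CPM, which overlapped. Neutrophil-like cells came next at 23.7 and 18.6 CPM, a ratio of 1.27 (1.13 to 1.43), and monocyte-like cells held 6.59 and 8.14 CPM. The neutrophil clusters with the most Tnf held the least Tnfsf13b. It was highest in the Ltf-led immature cluster, 84 CPM (74.9 to 94) and 63.5 CPM (56.9 to 70.7), lower in the Mmp8-led cluster at 37.1 and 19.6 CPM, and lowest in the Ccl3-led cluster of the Tet2+/+ library at 6.81 CPM. The Mmp8-led cluster had the one Tnfsf13b ratio among the 8 whose interval stayed above 1, 1.89 (1.48 to 2.43).

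With a size rule of 1.5-fold on the ratio after adding 10 CPM, applied to genes with at least 50 CPM in either library and 100 UMIs over both, 5 of the 7 genes could be called in neutrophil-like cells. Tnf, Traf1 and Tnfrsf23 passed in the higher direction, against 2.16% of the 2360 genes eligible in that class, and none of the 5 passed in the lower direction, against 7.2%. The 7 genes were chosen with earlier results of these data known, so their share cannot be read as enrichment. Nor can the median log2 ratio of the 5, which was 0.64, beside -0.10 over all eligible genes. Without the Ccl3-led cluster 1 of them passed, with Xist-carrying against Y-carrying cells none did, and with Y-carrying cells of both libraries 4 of the 7 did. In immature neutrophil-like cells neither of the 2 eligible genes passed, with 4.26% of 2113 genes higher and 0.71% lower. None of 3 passed in monocyte-like cells, where 1.82% of 2972 genes were higher and 1.24% lower. None of 4 passed in macrophage-like cells, with 0.647% of 2781 genes higher and 1.55% lower, and none of 4 in dendritic-like cells, with 0.857% of 2685 higher and 1.19% lower. In B cell-like cells Traf1 passed in the higher direction (1.81, 1.47 to 2.23), 1 of 3 eligible, against 1.6% of 2683 genes, with 0.895% lower. None of 4 passed in T cell-like cells (1.69% of 2959 higher, 1.32% lower) and none of 2 in NK cell or ILC-like cells (2.28% of 2760 higher, 3.8% lower). The median log2 ratio of the eligible genes was -0.17 in monocyte-like and -0.19 in macrophage-like cells, beside 0.04 and -0.02 over all eligible genes.

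The 88 further genes of the pathway, also chosen with earlier results of these data known, were read as 7 lists by role. In neutrophil-like cells the list called feedback inhibitors stood highest, with a median log2 ratio of 0.42 over 6 eligible genes of 10. Of these 6, 1 was past 1.5-fold in the higher direction, beside 2.16% of all eligible genes. The list name is a grouping, and these levels say nothing of NF-kB activity. That gene was Nfkbiz, an atypical member of the NF-kB inhibitor family, at 1178 CPM in the Tet2-/- library and 760 CPM in the other, a ratio of 1.55. Nfkbia, which holds NF-kB in the cytoplasm, stood at 2908 and 2044 CPM (1.42), and Cyld, which removes ubiquitin chains, at 124 and 80.7 CPM (1.54, just short of the rule after adding 10 CPM). Tnfaip3, the A20 gene, had 293 and 233 CPM and Nfkbie 64.9 and 49.8 CPM. Bcl3 alone of the 6 was lower, at 86.2 and 100 CPM, a ratio of 0.862 (0.815 to 0.911). Regulators of the Tnf transcript and of shedding had a median of 0.00 over 4 of 9, with 1 lower, beside 7.2% of all eligible genes. Zfp36l2, of the family that binds the AU-rich element shown above, stood at 317 CPM in the Tet2-/- library and 613 CPM in the other, a ratio of 0.518 (0.504 to 0.532). Its relatives Zfp36l1 and Zfp36, the latter encoding tristetraprolin, had 293 and 237 CPM and 2362 and 2894 CPM, and Zc3h12a, an RNase gene, 137 and 101 CPM. The family thus did not move one way. Kinases and NF-kB subunits had a median of 0.02 over 6 of 14 with none past the rule, the largest being Nfkb2 (73.6 and 55 CPM), Rel (130 and 100 CPM) and Map3k8 (92.4 and 107 CPM). In the receptor complex itself 1 of 9 genes was eligible, the ubiquitin ligase gene Birc3, at 264 and 252 CPM. From the death arm 2 of 7 were, among them Cflar, which encodes an inhibitor of the receptor's death signal, at 75.4 and 65.6 CPM. Of the other TNF family ligands 1 of 15 was eligible, Ltb at 184 and 227 CPM, and of the other receptors 1 of 24, Fas at 101 and 85 CPM.

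**Figure D4:**
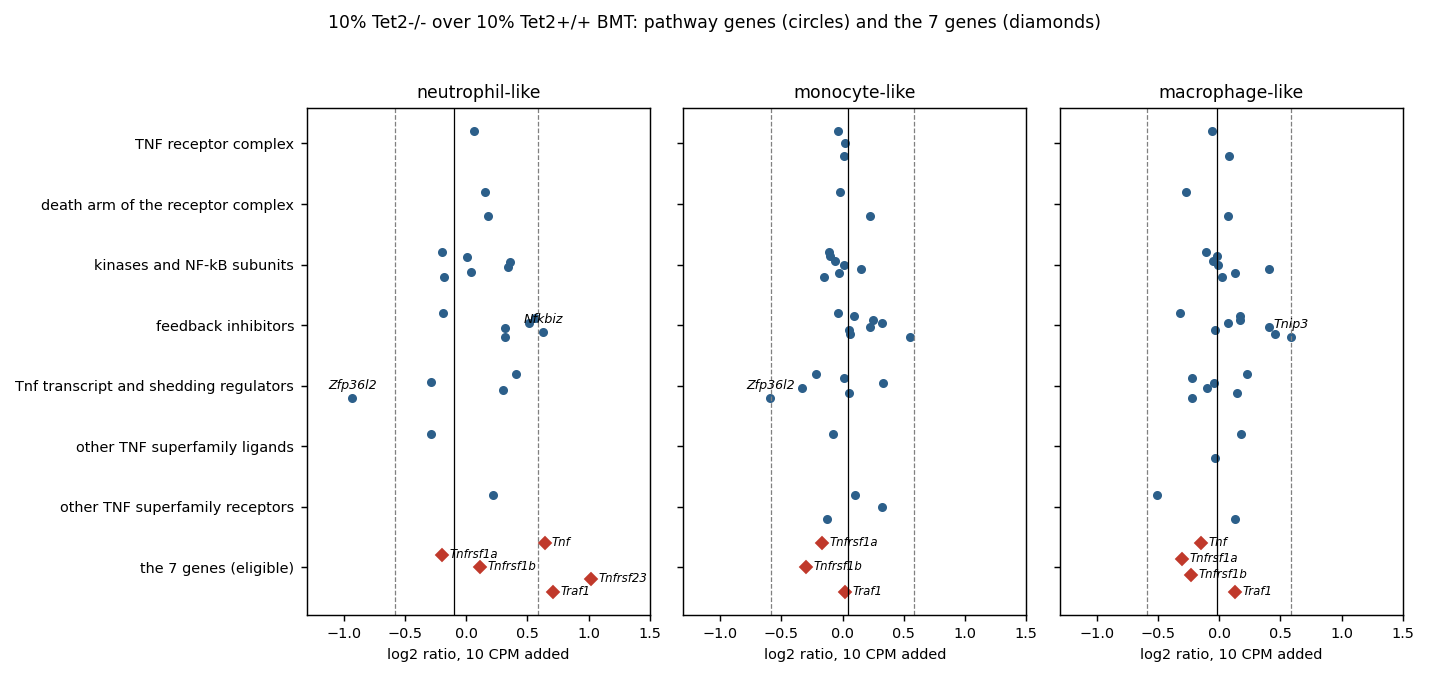
Log2 ratio, Tet2-/- over Tet2+/+ library after adding 10 CPM (horizontal axis), of the eligible pathway genes (circles) and of the eligible genes among the 7 (diamonds) in 3 classes, where the solid line is the median of all eligible genes and dashed lines mark 1.5-fold. In neutrophil-like cells Tnf, Traf1, Tnfrsf23 and Nfkbiz lie past the upper line and Zfp36l2 past the lower one, while in monocyte-like and macrophage-like cells none of the 7 genes reaches either line.

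Some of these differences were also seen in other classes, and whether classes differ was not tested. In immature neutrophil-like cells the feedback inhibitors had a median log2 ratio of 0.59, beside 0.16 over all eligible genes there. Of 3 eligible, 2 were past 1.5-fold, beside 4.26% of all eligible genes higher. These were Tnfaip3 at 51.1 and 30.7 CPM and Nfkbiz at 263 and 159 CPM. In monocyte-like cells Zfp36l2 was the one pathway gene past the rule and again lower in the Tet2-/- library. It was 1 of 6 eligible in its list, beside 1.24% of all eligible genes lower. In macrophage-like cells the one gene was Tnip3, from the feedback list, which was higher. It was 1 of 8 eligible in that list, beside 0.647% of all eligible genes higher. No pathway gene passed in dendritic-like cells, where 0.857% of all eligible genes were higher and 1.19% lower. With so few genes per list, these calls are not read as a result about the pathway.

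Neutrophil-like cells with a Tnf UMI were then set against those without one in the same cluster and library. In the Tet2-/- library 1392 cells carried a Tnf UMI and 3387 did not, with median depths of 4506.5 and 4036 UMIs. In the Tet2+/+ library 1375 did and 5268 did not, at 4679 and 4065.5 UMIs. Traf1 was higher in cells with Tnf in both libraries, 134 against 96.8 CPM in the Tet2-/- library (1.38-fold, 1.3 to 1.47) and 76.9 against 56.5 CPM in the other (1.36-fold, 1.25 to 1.48). The feedback inhibitors were mixed. Nfkbia stood at 1.54 and 1.53-fold, Tnfaip3 at 1.33 and 1.51-fold and Nfkbiz at 1.27 and 1.29-fold, while Nfkbie stood at 1.19 and 0.998-fold, Cyld at 0.881 and 0.962-fold and Bcl3 at 0.853 and 0.959-fold. The receptors had folds of 0.897 and 0.983 for Tnfrsf1a and 0.892 and 0.946 for Tnfrsf1b. Tnfrsf23, which shared the peak cluster with Tnf, stood at 0.87 and 0.968-fold. Past 1.5-fold were 0.616% of 2110 genes in the Tet2-/- library and 0.322% of 2484 in the other. In both libraries 4 genes passed, named here after their values were seen. They were Cxcl10, an interferon-induced chemokine gene (3.7 and 2.45-fold), the cytokine gene Il1a (1.84 and 1.7-fold), the adhesion gene Icam1 (1.67-fold in both) and Nfkbia. Erythroid markers differed too and in opposite directions, summing to 1912 CPM with and 273 CPM without Tnf in the Tet2-/- library (6 of 6 higher) and to 20.6 and 955 CPM in the Tet2+/+ library (2 of 6 higher), and their part was not tested.

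**Figure D5:**
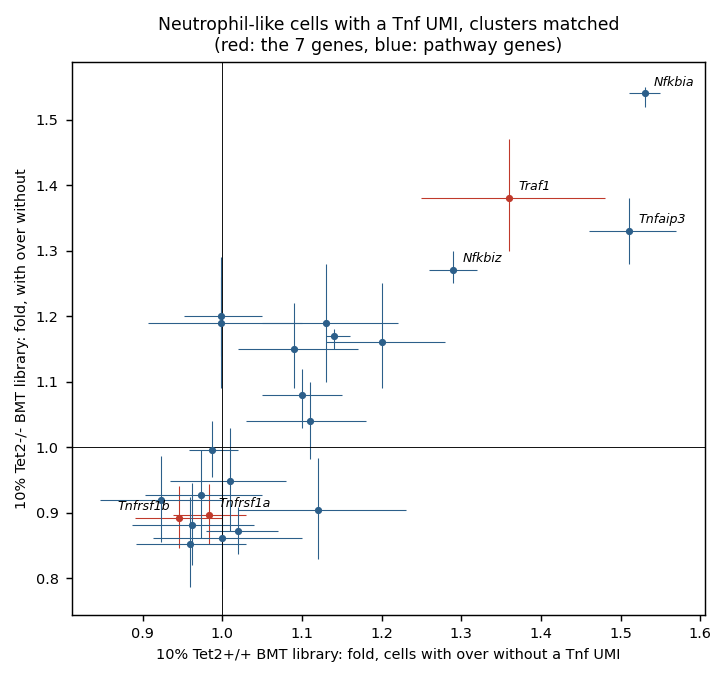
Fold between neutrophil-like cells with and without a Tnf UMI, matched by cluster, in the Tet2+/+ library (horizontal axis) and the Tet2-/- library (vertical axis), for members of the 7 (red) and pathway genes (blue) eligible in both, with 95% counting intervals. Traf1, Nfkbia, Tnfaip3 and Nfkbiz lie above 1 on both axes. Tnfrsf1a and Tnfrsf1b lie below 1 on both, with intervals that reach 1 in the Tet2+/+ library.

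Shares of cells with a UMI were compared after each cell was thinned to 1000 UMIs. Tnf was then seen in 11.7% and 7.31% of neutrophil-like cells (29.1% and 20.7% unthinned) and in 9.55% and 7.85% of macrophage-like cells (43.2% and 34%). The macrophage share was thus higher in the Tet2-/- library although its CPM was lower, so no direction is read from it. Traf1 was seen in 8.01% and 5.09% of neutrophil-like cells, Tnfrsf23 in 8.84% and 4.45%, Tnfrsf1a in 21.6% and 24.6% and Tnfrsf1b in 16.7% and 15.3%. Thinning left out 86 and 143 neutrophil-like cells with fewer UMIs. The Cd79a-led B cell cluster, which should lack Tnfrsf23, was used as a guide to stray RNA. Tnf and Tnfrsf1a made by these cells themselves cannot be told apart from stray RNA in that cluster. There Tnf was seen, unthinned, in 1.3% of 231 cells and 4.7% of 383 cells, at median depths of 4590 and 4545 UMIs close to the 4133 and 4179 of neutrophil-like cells. Tnf stood there at 2.29 and 9.56 CPM, Tnfrsf1a at 5.33 and 9.08 CPM, and Tnfrsf23 at 0 CPM, with 0 of 231 cells, and 0.478 CPM. A count of 0 there allows up to 2.29 CPM of Tnfrsf23. From its S100a8, free RNA could add 2.92 and 3.21 CPM of Tnf to that cluster, and from S100a8 of all B cell-like cells 21.5 and 26 CPM. The larger figure came from the Ebf1-led B cell cluster, which held 31497 and 40432 CPM of S100a8 and 437 and 541 CPM of the neutrophil receptor gene Cxcr2, together with 103 and 63.8 CPM of Tnf. B cell-like levels of Tnf, Tnfrsf1a and Tnfrsf23 therefore come mostly from a cluster that carries neutrophil transcripts. Traf1 was different, at 67 CPM (53.8 to 82.6) and 35.8 CPM (28.2 to 44.9) in the Cd79a-led cluster itself.

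Genes with the most similar pattern were ranked by Pearson correlation of log2(CPM + 10) over 16 points, 8 classes in each of 2 libraries, among genes reaching 50 CPM. The points share libraries and depth, and the values are a description. For Tnf they were Marcksl1 (0.858), Tctex1d2 (0.858) and Ptafr (0.855), for Tnfrsf1a Eif4ebp1 (0.964), Rab32 (0.953) and Mefv (0.944), and for Tnfrsf1b Cers2 (0.943), Hip1 (0.935) and Stat6 (0.923). Traf1 was nearest to Fam162a (0.944), Bhlhe40 (0.937) and Nub1 (0.930). Tnfrsf23 was nearest to Asprv1 (0.982), Rhov (0.959) and Slc7a11 (0.955). Tnfsf10 lay nearest to the lymphoid genes Ikzf2 (0.960), Cd226 (0.957) and Thy1 (0.946), and Tnfsf13b to Cd63 (0.887), Arrb2 (0.877) and Vcam1 (0.850).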

How the data were processed

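UMI counts per gene and barcode were deposited by the authors as 1 unnormalised matrix per library that lists all barcodes, before any selection of cells. They were made with Cell Ranger 6.1.2 on mm10, per the submitters' processing notes, and how reads shared by several genes were counted is not stated there. Rows were used as deposited. Cells were kept by the limits given above, scaled to 10000 UMIs, and clustered with leidenalg 0.10.2 (resolution 1) on 30 principal components of 2000 variable genes, leaving out the 7 genes, 88 pathway genes, sex-linked, haemoglobin, mitochondrial and ribosomal genes. Of 30 clusters, 24 were named from 17 marker lists (at least 3 markers) and 6 stayed unnamed; the names are rebuilt, not the authors'. Doublets were kept. UMIs were summed per class and library and given as CPM with exact Poisson intervals, ratios with exact conditional binomial intervals and shares with Clopper-Pearson intervals, all at 95%. With 1 library per group no SD, p-value or test was possible. A gene counted as higher or lower when its ratio after adding 10 CPM passed 1.5-fold, an arithmetic rule. It was run on simulated counts with counting error only, which cannot show how it behaves under differences between mice or libraries. The genes named in a pathway list are the 3 eligible with the largest ratio after adding 10 CPM, plus Tnfaip3, Nfkbie, Bcl3, Tnip3 and Zfp36, named after their values were seen; the 3 most similar genes are by Pearson correlation. Symbols were matched to GENCODE M21 for 32158 identifiers. The members, marker lists and pathway lists were chosen with earlier results of these data known. The values of 1 pathway gene are not reported here.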

Additional observations from a re-analysis of the deposited data

How the results depend on the processing

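The Tnf ratio in neutrophil-like cells, 1.62 as reported, stayed above 1 in all 25 alternatives. It was 1.71 with at most 5% mitochondrial UMIs, 1.81 with the libraries clustered alone, 2.07 with median-of-ratios and 2 with TMM scaling, 1.77 as a mean of per-cell CPM, 1.91 in thinned cells and 1.78 after subtracting free RNA. It was 1.43 for Xist-carrying against Y-carrying cells, 2.32 for Y-carrying cells of both libraries, 2.21 without the Siglecf-led cluster, 1.38 at the cluster mix of the other library and 1.11 without the Ccl3-led cluster. Of the 7 genes, 3 passed 1.5-fold in that class, 0 did for Xist-carrying against Y-carrying cells, 4 for Y-carrying cells of both libraries and 1 without the Ccl3-led cluster. The monocyte ratio of 1.37 became 1.18 at resolution 2, 0.988 with the libraries clustered alone, 1.16 in thinned cells, 4.12 after subtracting free RNA, 1.62 without the highest doublet scores, 1.2 for Xist-carrying against Y-carrying cells and 1.64 at the other cluster mix. The macrophage ratio of 0.892 became 0.779 with the libraries clustered alone, 1.01 as a mean of per-cell CPM and 1.09 in thinned cells. The causes were not tested. Scaling factors moved neutrophil ratios by 0.31 (TMM) and 0.35 (median-of-ratios) on the log2 scale. Over the alternatives in neutrophil-like cells Traf1 ran from 1.38 to 3.13, Tnfrsf23 from 1.6 to 3.4, Tnfrsf1a from 0.69 to 1.11, Tnfrsf1b from 0.721 to 1.54 and Tnfsf13b from 0.998 to 1.62. Leaving out single clusters other than the Siglecf-led one, adding unnamed clusters and scaling free RNA by 1 B cell cluster were chosen after seeing the data. No paired analysis was possible because each group is 1 library. Tnfsf10 in neutrophil-like cells, with 5 and 24 UMIs, was too shallow for a comparison by cluster.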
